A study of Mus musculus with 30 samples.

Results

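The nuclear genome encodes most subunits of the mitochondrial respiratory chain, and their RNA was followed here in whole forebrain and in microglia isolated from mice that had lost interleukin-34 (IL-34). Members were the protein-coding rows of the deposited count table whose symbol begins with Nduf, Uqcr or Atp5, or with Cox followed by a digit from 4 to 8, together with Sdha, Sdhb, Sdhc, Sdhd and Cyc1. The rule took 99 of 51752 rows, which carry 98 distinct symbols because Atp5po is listed a second time for a long model that reads through its neighbours. By role, 38 rows belong to complex I, 8 are complex I assembly factors, 4 belong to complex II, 9 to complex III, 21 to complex IV and 19 to complex V. Complex IV is taken here with Ndufa4 and its paralog Ndufa4l2, with the supercomplex factor Cox7a2l and with the copy Cox5b-ps.

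IL-34 signals through the receptor that Csf1r encodes, and microglia depend on that receptor. The data are 30 RNA libraries from 15 mice of 2 separate experiments. In the genotype experiment 3 Il34 knockout (KO) animals were compared with 4 Il34 heterozygous (Het) animals, so the controls carry 1 intact copy of the gene. In the antibody experiment 4 wild-type animals given an IL-34 blocking antibody (anti-IL34) were compared with 4 given the control antibody anti-gp120. Each animal gave 1 library of whole forebrain from one side of the brain and 1 library of CD11b-positive cells, isolated with antibody-coated magnetic beads, from the other. CD11b is a surface protein of microglia and of other myeloid cells. All libraries were made from total RNA with a low-input full-length kit, and neither the age of the mice nor the antibody doses are stated in the labels. Animals are named by their number in the labels, and the same number in the other experiment is another animal. The KO arm had 1 male and 2 females, the anti-IL34 arm 3 males and 1 female, and each control arm 2 of each.

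Complex I passes electrons from NADH to ubiquinone, and complex II, which is also the succinate dehydrogenase of the citric acid cycle, passes them from succinate. Complex III hands them to cytochrome c, complex IV reduces oxygen, and complex V makes ATP from the proton gradient that complexes I, III and IV build. The mitochondrial genome encodes the remaining subunits of all complexes except complex II. In the brain, neurons have a high demand for oxidative ATP, and microglia can draw on glycolysis as well.

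Many nuclear respiratory chain genes share promoter elements of the factors NRF1, GABPA and YY1. The RefSeq table of promoters (GRCm38.p6) held a window, 250 bases before to 50 after the start site, for 79 of the 99 rows. Letters were searched on both strands in 1 window a gene, in 78 member genes and in 27025 genes in all. The NRF1 letters, GCGCA and GCGC with 1 base of any kind between them, were present in 19 member windows (24.4%) against 4.78% of all windows. The GABPA letters ACTTCCGG were in 5 member windows (6.41%) against 4.0% of all. The YY1 letters AAGATGGCG were in 7 member windows (8.97%) against 1.49% of all. At least 1 of the 3 was in 29 member windows (37.2%) against 9.61% of all. A match describes letters only and is no evidence that a factor binds there. The 150 bases before the start site are shown for 5 members that the results return to, with matches in capitals. Cox6a1, Atp5me and Sdha carry NRF1 letters, 3 times in Sdha, Uqcr11 carries the reverse complement of the GABPA letters, and Cox7a2l carries none of the 3 in its window. A further NRF1 match of Cox6a1 begins 162 bases before the start site, outside the stretch shown.
Cox6a1 (chr5:115348959-115349108, minus strand): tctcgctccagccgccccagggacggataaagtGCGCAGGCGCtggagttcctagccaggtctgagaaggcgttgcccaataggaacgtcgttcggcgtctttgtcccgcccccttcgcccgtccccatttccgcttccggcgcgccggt
Atp5me (chr5:108434400-108434549, minus strand): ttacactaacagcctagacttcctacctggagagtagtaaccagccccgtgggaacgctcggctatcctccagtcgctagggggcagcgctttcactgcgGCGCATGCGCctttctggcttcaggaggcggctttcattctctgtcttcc
Uqcr11 (chr10:80406822-80406971, minus strand): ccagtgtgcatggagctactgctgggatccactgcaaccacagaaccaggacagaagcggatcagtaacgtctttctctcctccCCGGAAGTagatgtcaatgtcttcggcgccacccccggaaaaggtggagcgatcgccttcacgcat
Sdha (chr13:74350241-74350390, minus strand): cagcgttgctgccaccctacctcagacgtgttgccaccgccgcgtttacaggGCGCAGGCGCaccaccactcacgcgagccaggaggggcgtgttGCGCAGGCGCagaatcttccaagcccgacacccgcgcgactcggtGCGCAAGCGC
Cox7a2l (chr17:83514334-83514483, minus strand): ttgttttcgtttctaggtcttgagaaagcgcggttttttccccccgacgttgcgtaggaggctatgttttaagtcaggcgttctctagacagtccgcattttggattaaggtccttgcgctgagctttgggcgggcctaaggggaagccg

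Total counts ran from 15064391 to 75158213 per library. Levels are given as CPM, read counts divided by library size, after scaling within each comparison, so a library has a slightly different level in the comparison of tissues than in the comparison of arms. CPM is not corrected for gene length and is compared here only for the same gene. Reads were counted over whole gene spans, introns included, and the use of strand is not stated. For 44 members another gene's span overlaps theirs, and for 12 it covers over 25% of their exonic bases, among them Cox6a2 (100% under Itgad), Atp5po (73.3%), Ndufs1 (70.4%), Ndufb9 (69.0%), Ndufb8 (64.6%) and Atp5if1 (63.5%). Reads of such a member cannot be told apart from those of its neighbour, and how they were assigned is not stated. Of members that are 100% covered, Ndufa13 has 0 counts over all libraries and Cox6a2 has 1701. Cox4i1, Ndufa13 and Cox8c are listed at 0 in all 30 libraries, so the broadly expressed subunit 4 of complex IV is not measured here. With Cox8b and Ndufb11b, which were too low to test, 94 members entered the tests, and 93 in the isolates, where Cox7b2 was also too low.

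The labels were checked before the members were read. Il34 stood at 19.3 to 23.6 CPM in Het forebrain and at 6.81 to 8.79 CPM in KO forebrain. In the isolates it did not separate the genotypes, at 5.20 to 10.6 CPM in Het and 5.34 to 7.29 CPM in KO, so there it does not check the labels. Of 10 microglia markers 9 were in the table, and all 9 were higher in the isolates than in forebrain (edgeR, adjusted p under 0.05, median log2 fold change 5.58). The isolates of control animals also held RNA of other cells. Their summed astrocyte markers were 8411 ± 4859 CPM (SD, n = 8) against 7336 ± 369 CPM (SD, n = 8) in forebrain, and their summed neuronal markers 320 ± 149 CPM against 5350 ± 212 CPM. Among the control isolates, Het animal 1 and anti-gp120 animal 15 had the highest astrocyte sums of their arms (11768 and 16963 CPM), the highest share of counts on the mitochondrial genome (7.99% and 11.9%) and the highest member sums. Counts, medians by complex and the values of some named members are also given with either left out. Leaving out the control with the highest member level raises the difference by construction, so calls made that way are no support for it. In libraries of bulk tissue or mixed isolates, fewer cells of a type and less RNA per cell cannot be told apart.

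The first question is how the chain differs between the isolates and whole forebrain when IL-34 is present. In the 8 control animals the summed member level was 5164 ± 205 CPM in forebrain (SD, n = 8), and in the isolates it was 3895 ± 601 CPM (SD, n = 8). Of 94 members tested, 58 were lower and 9 higher in the isolates (edgeR quasi-likelihood test, Benjamini-Hochberg adjusted p under 0.05), 71.3% in all. Among all 18752 genes tested 84.1% were called, 40.8% higher and 43.3% lower, so a smaller share of the members than of all genes was called, and 61.7% of the members were lower. The tissues did not overlap for 38 lower members and 2 higher members, where 32.5% and 29.9% of all genes did not. The median log2 fold change of the members was -0.40, against -0.04 over all genes.

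**Figure D1:**
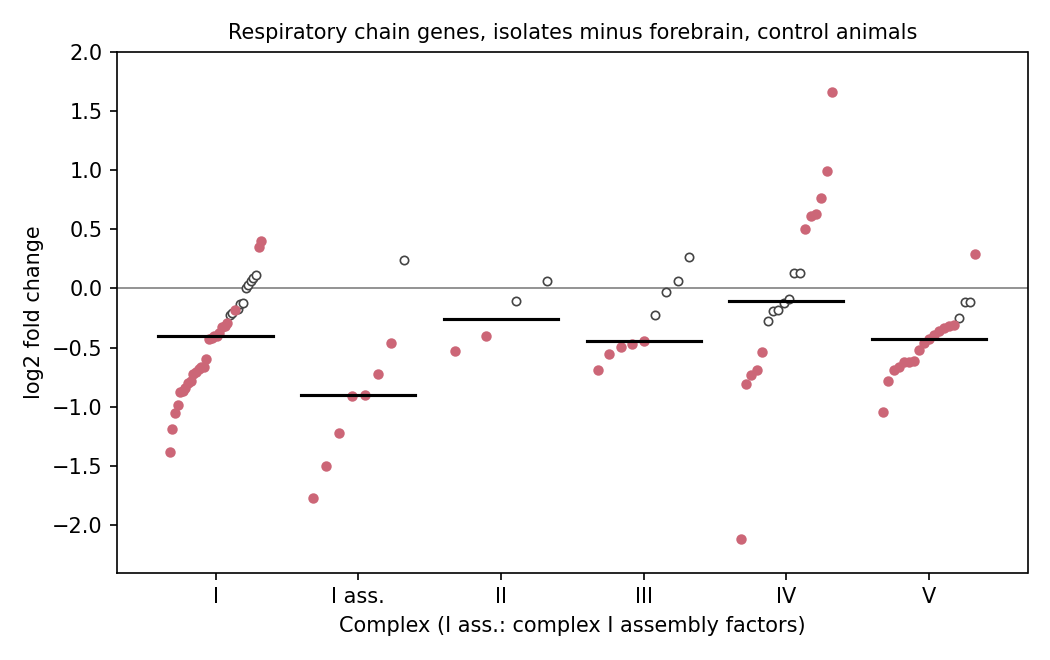
Log2 fold change of each tested member between isolates and whole forebrain of the 8 control animals, by complex; filled points passed the test, open points did not, and the bars are medians. Assembly factors have the lowest median (-0.90), and complex IV has the widest range, from -2.12 to 1.66.

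Complex I was lower in the isolates in 24 of 36 tested members and higher in 2 (all genes: 43.3% and 40.8%), with a median log2 fold change of -0.40. The core subunits carry the electron path. Ndufs1, which holds iron-sulfur clusters, had 127, 139 and 145 CPM in forebrain (lowest, median and highest of 8), and its isolates had 61.7, 79.6 and 98.6 CPM. The tissues did not overlap, and the log2 fold change was -0.78 (SE 0.09, adjusted edgeR p 5.31e-07). Ndufv1, which binds NADH, was lower as well (-0.84, SE 0.07). Ndufs3, another core subunit, ran from 43.4 to 47.0 CPM in forebrain and from 18.6 to 25.6 CPM in the isolates (log2 fold change -1.06, SE 0.07, adjusted edgeR p 2.41e-10), the smallest p of the members that were lower. The accessory subunit Ndufb4 fell further, from 7.82 ± 0.988 to 3.05 ± 0.704 CPM (SD, n = 8 each; log2 fold change -1.38, SE 0.12). Ndufb8 and Ndufb9 did not pass (-0.12 and 0.11, SE 0.14 and 0.18). The 2 complex I members that were higher were Ndufa2 (0.40, SE 0.11) and Ndufb11 (0.35, SE 0.09), both accessory subunits named after their values were seen.

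The assembly factors of complex I, which help to build the complex and do not stay in it, were lower in 7 of 8, against 43.3% of all genes. For 6 of them the tissues did not overlap, against 32.5% of all genes. Ndufaf5 stood at 27.5, 34.3 and 36.6 CPM (lowest, median, highest) in forebrain and at 7.50, 9.35 and 13.4 CPM in the isolates. The ratio of the levels was 0.292 (log2 fold change -1.77, SE 0.11, adjusted edgeR p 2.79e-10), with no overlap. Ndufaf4 (-1.50), Ndufaf1 (-1.22) and Ndufaf7 (-0.72) were also lower with no overlap between tissues. Ndufaf8 was the factor that did not pass, at 0.24.

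In complex II, 2 of 4 members were lower, where 43.3% of all genes were. Sdha, the flavoprotein that oxidises succinate, went from 258 ± 5.23 CPM in forebrain to 195 ± 29.4 CPM in the isolates (SD, n = 8 each; log2 fold change -0.41, SE 0.08), and Sdhb, the iron-sulfur subunit, from 60.3 ± 3.60 to 41.8 ± 3.57 CPM (-0.53, SE 0.06). The membrane anchors Sdhc and Sdhd did not pass, with 95% intervals from -0.08 to 0.21 and from -0.25 to 0.03. The difference between the subunits was not tested.

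In complex III, 5 of 9 members were lower, a share not far from the 43.3% of all genes, and none was higher, against 40.8%. Uqcrc2, a core protein, went from 137 ± 6.67 CPM in forebrain to 84.7 ± 8.00 CPM in the isolates (SD, n = 8 each; log2 fold change -0.69, SE 0.06), with no overlap. Its partner Uqcrc1 (-0.55), the Rieske iron-sulfur protein Uqcrfs1 (-0.44) and cytochrome c1, encoded by Cyc1 (-0.47), were lower too. The small subunit Uqcr11 did not pass (0.27, SE 0.18).

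In complex IV, 5 of 18 tested members were lower, 6 higher and 7 not called, so both shares were below those of all genes (43.3% and 40.8%). Cox5a went from 63.6 ± 3.07 to 36.3 ± 3.40 CPM (SD, n = 8 each; log2 fold change -0.81, SE 0.06), with no overlap. Cox7b2, an isoform known from testis, was near the limit of detection in both, at 0.624 ± 0.171 and 0.149 ± 0.0759 CPM (-2.12, SE 0.30). In the other direction, Cox7a2l, which joins complexes III and IV into supercomplexes, had 56.0, 59.3 and 67.4 CPM in forebrain and 81.7, 91.2 and 100.2 CPM in the isolates. Every isolate stood above every forebrain library (log2 fold change 0.61, SE 0.06, adjusted edgeR p 3.89e-08). Its relative Cox7a2, the broadly expressed subunit, did not pass (-0.28, SE 0.15). Ndufa4 and Ndufa4l2 are paralogs, and the latter is known to be induced by low oxygen. Ndufa4 was lower, from 89.1 ± 7.88 to 61.5 ± 16.8 CPM (-0.54, SE 0.14), while Ndufa4l2 was higher, from 1.20 ± 0.264 to 3.96 ± 1.27 CPM (1.66, SE 0.19), with no overlap for Ndufa4l2. The other members that were higher were Cox4i2 (0.76), Cox6b2 (0.99), Cox6a1 (0.63) and Cox8a (0.50), and for these the ranges of the tissues overlapped. Cox6a2 was lower (-0.69, SE 0.20), at 0.528 to 2.16 CPM over both tissues.

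Complex V was lower in 15 of 19 members, against 43.3% of all genes. The F1 head subunits Atp5f1a and Atp5f1b, the latter catalytic, went from 532 ± 25.8 to 346 ± 38.7 CPM and from 604 ± 35.5 to 392 ± 52.1 CPM (SD, n = 8 each; log2 fold change -0.62 for both, SE 0.08 and 0.09), with no overlap. The 3 genes of the proton-carrying c ring encode the same mature protein, and all 3 were lower with no overlap: Atp5mc1 (-1.05), Atp5mc2 (-0.78) and Atp5mc3 (-0.61). Atp5if1, the inhibitor of the reverse reaction, was lower by a smaller amount (-0.36, SE 0.10). The F1 subunit Atp5f1e was the exception in the other direction (0.29, SE 0.11).

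Other genes of mitochondrial energy supply were read beside the members, in the same fit with 43.3% of all genes lower and 40.8% higher. Of 37 tested assembly genes outside the rule 27 were lower and 6 higher, of 15 electron carrier genes 11 were lower and 2 higher, and of 16 citric acid cycle genes 12 were lower and 1 higher. Of 12 RNAs of the mitochondrial genome 4 were higher, a smaller share than of all genes, and none was lower (median log2 fold change 0.39), and each overlapped between tissues. Of 79 cytosolic ribosomal protein genes 71 were higher and 3 lower (median 1.26).

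The next question is whether loss of IL-34 changed the chain in whole forebrain. It was not detectable there. Deletion called 0 of 94 members with edgeR (2 at an unadjusted p under 0.05, both lower, against 5.01% of all genes, and 0 with DESeq2), where 0.62% of all genes were called. The antibody also called 0 of 94 (2 at an unadjusted p under 0.05, both lower, against 3.43% of all genes, and 0 with DESeq2), where 0.717% of all genes were called. The log2 fold change was above 0 for 54 of 94 members after deletion, against 49.9% of all genes, and for 22 of 94 with the antibody, against 50.3%. The median over the members was 0.01 after deletion and -0.06 with the antibody. The 95% interval lay inside -0.5 to 0.5 for 87 of 94 members after deletion and for 82 of 94 with the antibody. Over the same libraries all 9 microglia markers fell after deletion and 8 of 9 with the antibody (edgeR, adjusted p under 0.05), to summed levels of 102 ± 7.20 CPM in KO against 237 ± 14.2 in Het, and of 183 ± 16.5 CPM with anti-IL34 against 425 ± 45.8 with anti-gp120.

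**Figure D2:**
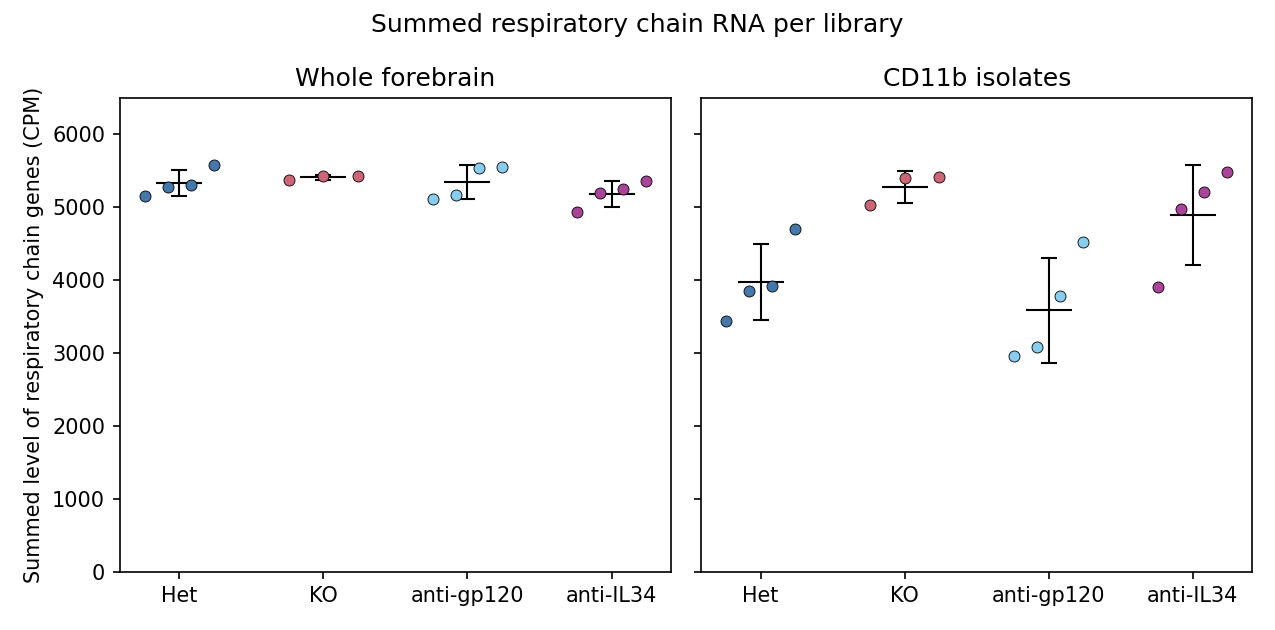
Summed level of all members per library in CPM, by arm, in whole forebrain and in the CD11b isolates; points are animals and bars are the mean ± SD of 3 or 4 animals. Forebrain sums lie close together in all arms, and in the isolates the KO sums lie above all Het sums while the antibody arms overlap.

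The summed level in forebrain was 5331 ± 180 CPM in Het, 5411 ± 31.2 in KO, 5347 ± 235 with anti-gp120 and 5185 ± 179 with anti-IL34 (SD, n = 4, 3, 4 and 4). Single members ranged more widely, with log2 fold changes from -0.45 to 0.29 after deletion and from -0.34 to 0.20 with the antibody. Atp5f1b had 666, 617, 610 and 613 CPM in Het animals 1, 20, 21 and 23 and 652, 625 and 643 CPM in KO animals 24, 3 and 6. These ranges overlap (log2 fold change 0.03, SE 0.04, 95% interval -0.06 to 0.13). Sdha had 261 to 271 CPM in Het and 261 to 284 CPM in KO (0.02, 95% interval -0.07 to 0.11). With the antibody Sdha had 262 to 279 CPM in controls and 249.1 to 274 CPM in treated animals (0.01, 95% interval -0.12 to 0.13). The members with the smallest p after deletion were Ndufb9 (-0.14, SE 0.06), Cox6a2 (-0.45, SE 0.21) and Ndufb2 (0.14, SE 0.07), and with the antibody Ndufb9 (-0.20, SE 0.08), Atp5f1e (-0.28, SE 0.12) and Ndufa1 (-0.18, SE 0.10). None of these passed the adjusted threshold in edgeR, and the lowest adjusted p was 0.661 after deletion and 0.853 with the antibody.

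In the isolates most members had higher values when IL-34 was missing or blocked, but none passed the test with all animals. After deletion edgeR called 0 of 93 members, where 5.37% of all 18185 genes were called, 5.22% of them lower. At an unadjusted p under 0.05, 49 members (52.7%) were higher and 0 lower, against 14.4% and 18.2% of all genes, and DESeq2 called 36, all higher, with 3710 of 29396 genes called in all. DESeq2 totals here and below hold every gene with a count, including any left without an adjusted p. The log2 fold change was above 0 for 87 of 93 members, against 51.4% of all genes, with a median of 0.38 against 0.02. All KO isolates stood above all Het isolates for 58 members (62.4%), against 18% of all genes, and below them for 1, Ndufaf7, against 19.7%. Without Het animal 1 edgeR called 58 of 93 members, all higher, and 5756 of 18294 genes in all. Without Het animal 21, the Het isolate with the lowest member sum, it called 23 members, all higher, and 3115 of 18073 genes. The median of the members was 0.48 without the first and 0.31 without the second. Leaving out any of the other 5 animals left 0.

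The antibody gave values of like size with more overlap. EdgeR called 0 of 93 members, where 0.626% of all 17570 genes were called. At an unadjusted p under 0.05, 39 members (41.9%) were higher and 0 lower, against 10.6% and 15.3% of all genes, and DESeq2 called 5, with 1868 of 29795 genes in all: Atp5me, Cox6a2, Cox8a, Ndufa2 and Ndufc2. The log2 fold change was above 0 for 88 of 93, against 54.7% of all genes, with a median of 0.42 against 0.06. The arms did not overlap for 8 higher members (8.60%), against 4.78% of all genes, and for 1 lower member, again Ndufaf7, against 10.7%. Without anti-gp120 animal 15 edgeR called 67 of 93 members, all higher, and 6905 of 17071 genes, and leaving out any of the other 7 animals left 0. The median of the members was 0.49 without that animal, 0.26 without anti-gp120 animal 1, the control with the lowest member sum, and 0.60 without anti-IL34 animal 11. Of the 58 members called without Het animal 1, 55 (94.8%) were among these 67 (82.1% of the 67). Each list comes from a fit without the control of highest member sum, so this overlap is no support for a shared effect. The same overlap over all genes was not counted.

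The summed level shows which animals make the difference. It was 4697, 3921, 3442 and 3859 CPM in the isolates of Het animals 1, 20, 21 and 23, and 5406, 5415 and 5027 CPM in KO animals 24, 3 and 6. With the control antibody it was 2958, 3789, 3091 and 4522 CPM in animals 1, 7, 8 and 15, and with anti-IL34 4973, 5478, 3906 and 5210 CPM in animals 2, 10, 11 and 24. KO and Het do not overlap, and in the antibody experiment anti-gp120 animal 15 lies above anti-IL34 animal 11.

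**Figure D3:**
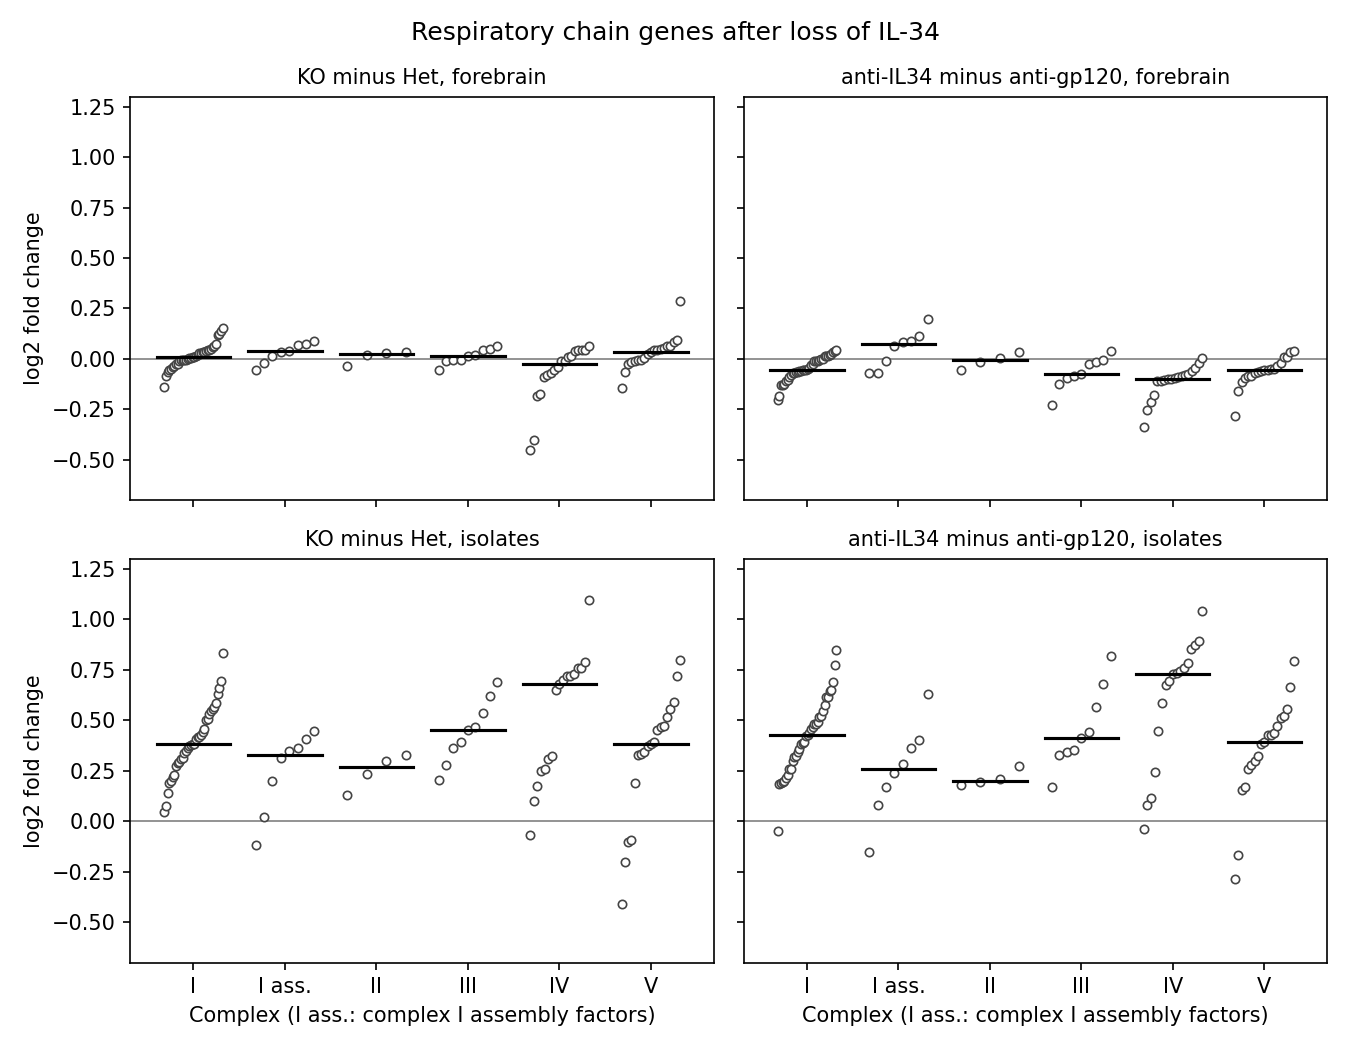
Log2 fold change of each tested member after loss of IL-34, by complex, for both experiments in forebrain (upper panels) and in the isolates (lower panels); open points are members that did not pass the test, and bars are medians. In forebrain the medians lie near 0, and in the isolates complex IV has the highest median in both experiments (0.68 and 0.73).

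Complex by complex, the median log2 fold change in the isolates after deletion and with the antibody was 0.38 and 0.43 in complex I, 0.33 and 0.26 in its assembly factors, and 0.27 and 0.20 in complex II. It was 0.45 and 0.42 in complex III, 0.68 and 0.73 in complex IV, and 0.38 and 0.39 in complex V. Differences between complexes were not tested. The number of members higher at an unadjusted p under 0.05 after deletion, where 14.4% of all genes were, was 18 of 36 in complex I, 0 of 8 assembly factors, 0 of 4 in complex II, 7 of 9 in complex III, 11 of 17 in complex IV and 13 of 19 in complex V. With the antibody, where 10.6% of all genes were higher at that p, it was 14, 3, 0, 5, 11 and 6 in the same order.

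The medians moved up or down with the control left out. Without Het animal 1 they were 0.50 in complex I, 0.43 in the assembly factors, 0.35 in complex II, 0.54 in complex III, 0.85 in complex IV and 0.45 in complex V, and edgeR called 26, 0, 2, 8, 10 and 12 members, with 5756 of 18294 genes called in all. Without Het animal 21 they were 0.30, 0.21, 0.21, 0.38, 0.54 and 0.34 in the same order, all below the values with every animal, and edgeR called 5, 0, 0, 3, 9 and 6, with 3115 of 18073 genes. Without anti-gp120 animal 15 they were 0.50, 0.33, 0.25, 0.50, 0.87 and 0.48 in the same order, and edgeR called 27, 3, 1, 8, 13 and 15, with 6905 of 17071 genes.

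In complex I the core subunit Ndufs1 had 99.1, 84.6, 72.2 and 82.7 CPM in Het animals 1, 20, 21 and 23 and 105, 102 and 106 CPM in KO animals 24, 3 and 6. The arms did not overlap, and the fold change was 1.24 (log2 0.31, SE 0.14, adjusted edgeR p 0.166). With the antibody it overlapped, at 60.9, 74.0, 56.3 and 89.8 CPM in control animals 1, 7, 8 and 15 and 77.0, 97.5, 74.2 and 82.1 CPM in treated animals 2, 10, 11 and 24 (log2 0.23, SE 0.18). Ndufv1 gave 0.35 after deletion and 0.30 with the antibody. The accessory subunits of the membrane arm whose symbols begin with Ndufb ranged from 0.19 (Ndufb7) to 0.84 (Ndufb9, 69.0% under another gene) after deletion. Ndufb8, of which 64.6% lies under another gene, had 39.4, 31.4, 20.8 and 29.9 CPM in Het and 49.3, 48.4 and 43.1 CPM in KO, a fold change of 1.55 with no overlap (log2 0.63, SE 0.22, adjusted edgeR p 0.119). Its antibody value was nearly equal, at 1.57-fold (log2 0.65, SE 0.24), with overlap. Ndufa2, Ndufc2 and Ndufb7 had the smallest p with the antibody (log2 0.69, 0.52 and 0.42, SE 0.18, 0.15 and 0.13). For these 3 the antibody arms did not overlap, and Ndufa2 ran from 11.1 to 15.3 CPM in controls and from 16.7 to 24.0 CPM in treated animals (adjusted edgeR p 0.0909). With Het animal 1 or anti-gp120 animal 15 left out, the highest control for both genes, the log2 fold changes moved to 0.41 and 0.34 for Ndufs1 and to 0.81 and 0.80 for Ndufb8, past the threshold by that choice. Of the assembly factors Ndufaf1 gave 0.31 (SE 0.23) and 0.24 (SE 0.16), and Ndufaf7 gave -0.12 (SE 0.11) and -0.15 (SE 0.10).

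In complex II, Sdha had 227, 188, 177 and 189 CPM in Het animals 1, 20, 21 and 23 and 258, 248 and 224 CPM in KO animals 24, 3 and 6. The lowest KO isolate lies below the highest Het isolate, and the log2 fold change was 0.33 (SE 0.14, adjusted edgeR p 0.160). Sdhb, Sdhc and Sdhd gave 0.24, 0.30 and 0.13. With the antibody the 4 subunits lay between 0.18 and 0.27, and each overlapped between arms. Sdhd had 31.0, 30.4, 29.9 and 37.1 CPM in control animals 1, 7, 8 and 15, of which animal 15 stood highest, and 34.5, 38.9, 33.5 and 40.4 CPM in treated animals 2, 10, 11 and 24. Sdha (0.41) and Sdhc (0.39) were past the threshold with Het animal 1, their highest control, left out, and Sdha (0.37) with anti-gp120 animal 15 left out.

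In complex III no member passed in edgeR with every animal. Uqcrc1 and Uqcrc2 had log2 fold changes of 0.28 and 0.20 after deletion (SE 0.14 and 0.10) and of 0.33 and 0.17 with the antibody (SE 0.13 for both). Uqcrfs1 had 54.3, 46.0, 41.2 and 45.2 CPM in Het animals 1, 20, 21 and 23 and 66.0, 61.4 and 66.0 CPM in KO animals 24, 3 and 6, with no overlap (fold 1.38, log2 0.47, SE 0.13, adjusted edgeR p 0.0873). Cyc1 gave 0.39 and 0.42. The small subunit Uqcr11, chosen after its values were seen, had the highest log2 fold change of the 9 in both experiments. It had 35.3, 26.2, 16.2 and 25.2 CPM in Het and 44.2, 42.7 and 37.3 CPM in KO (fold 1.62, SE of the log2 value 0.26). With the antibody Uqcr11 had 15.6, 28.1, 19.0 and 35.1 CPM in controls and 49.4, 49.7, 30.2 and 47.8 CPM in treated animals (fold 1.77, log2 0.82, SE 0.31, adjusted edgeR p 0.169). Control animal 15 and treated animal 11 are the pair that overlaps. Uqcr11 moved to 0.92 and 1.01 and Uqcrfs1 to 0.56 and 0.46, past the threshold, with Het animal 1 or anti-gp120 animal 15, again the highest controls, left out.

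In complex IV, several broadly expressed small subunits gave log2 fold changes above 0.6, though not Cox7c (0.26 and 0.45). Cox6a1 had 141, 91.8, 62.9 and 104 CPM in Het animals 1, 20, 21 and 23 and 180, 183 and 149 CPM in KO animals 24, 3 and 6. No KO isolate lay in the Het range, and the fold change was 1.73 (log2 0.79, SE 0.27, adjusted edgeR p 0.119). With the antibody it had 71.7, 134, 80.4 and 148 CPM in controls 1, 7, 8 and 15 and 228, 240, 136 and 224 CPM in treated animals 2, 10, 11 and 24 (fold 1.81, log2 0.85, SE 0.31, adjusted edgeR p 0.159). Treated animal 11 lay well under the other 3 treated animals, inside the control range. Cox6b1 (0.76 and 0.67), Cox7a2 (0.68 and 0.76), Cox8a (0.72 and 0.90) and Ndufa4 (0.73 and 0.73) gave like values after deletion and with the antibody. All 4 had no overlap after deletion and overlapped with the antibody. Leaving out the highest control of either gene, Het animal 1 or anti-gp120 animal 15, moved Cox6a1 to 1.02 and 1.03 and Ndufa4 to 0.91 and 0.92, past the threshold by that choice. Cox5a gave 0.31 (SE 0.10) and 0.24 (SE 0.13).

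The isoforms of complex IV that are restricted to certain tissues were low. Cox4i2, Cox7a1 and Ndufa4l2 stood between 0.239 and 6.36 CPM in all isolates and overlapped between arms in both experiments. Cox6a2, an isoform of heart and skeletal muscle, had 0.865, 1.16, 0.541 and 1.07 CPM in Het animals 1, 20, 21 and 23 and 2.25, 2.11 and 1.51 CPM in KO animals 24, 3 and 6 (fold 2.14, log2 1.10, SE 0.32, adjusted edgeR p 0.0940). It did not overlap with the antibody either (fold 2.06, log2 1.04, SE 0.34). With its highest control, anti-gp120 animal 15, left out it moved to 1.31, past the threshold by that choice. Since all its exonic bases lie under Itgad, an integrin gene of leukocytes, it cannot be said which of the 2 genes these reads come from.

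Cox7a2l had log2 fold changes below 0 in both experiments, and neither passed. It had 92.9, 84.0, 103 and 86.7 CPM in Het animals 1, 20, 21 and 23 and 91.5, 86.6 and 79.4 CPM in KO animals 24, 3 and 6, with a 95% interval of the log2 fold change from -0.34 to 0.20. With the antibody it had 77.6, 92.5, 84.3 and 89.6 CPM in controls 1, 7, 8 and 15 and 86.2, 91.5, 75.2 and 87.5 CPM in treated animals 2, 10, 11 and 24 (interval -0.28 to 0.21). With Het animal 1 or anti-gp120 animal 15 left out it gave -0.07 and -0.03 and did not pass. Among the members that were higher in the isolates of control animals Cox7a2l had the smallest p, and its arms overlapped in both experiments.

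**Figure D4:**
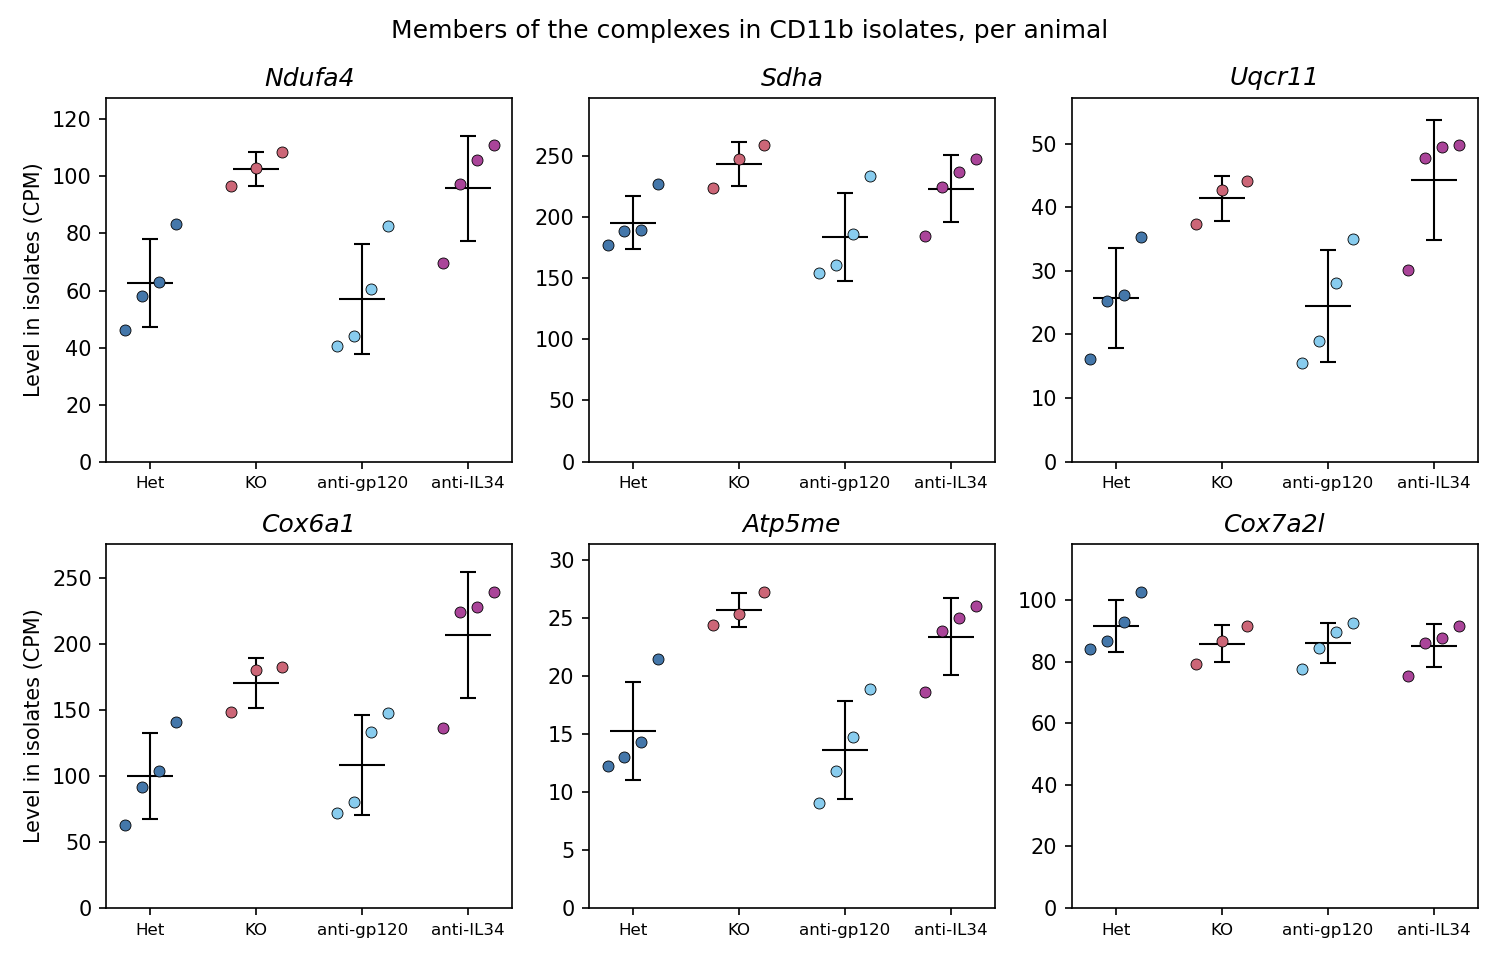
Level in the isolates, in CPM, of 6 members by arm; points are animals and bars are the mean ± SD of 3 or 4 animals. Ndufa4, Uqcr11, Cox6a1 and Atp5me lie higher in KO than in Het without overlap, and the arms of Cox7a2l overlap.

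In complex V the catalytic subunit Atp5f1b had 445, 402, 369 and 385 CPM in Het animals 1, 20, 21 and 23 and 512, 537 and 509 CPM in KO animals 24, 3 and 6, with no overlap (fold 1.31, log2 0.38, SE 0.15, adjusted edgeR p 0.136). Atp5f1a gave 0.33 (SE 0.14), and with the antibody the pair gave 0.32 and 0.26. Atp5po, which links the F1 head to the stalk and has 73.3% of its exonic bases under other genes' spans, had the smallest p after deletion, with 22.7, 20.7, 18.0 and 19.7 CPM in Het and 29.1, 29.2 and 28.6 CPM in KO (fold 1.43, log2 0.52, SE 0.12, adjusted edgeR p 0.0629). The KO values of Atp5po lie close together and above all Het values. Next came Atp5me, a subunit that helps to hold dimers of the complex, with 21.5, 14.3, 12.2 and 13.1 CPM in Het and 25.3, 27.3 and 24.5 CPM in KO (fold 1.74, log2 0.80, SE 0.20, adjusted edgeR p 0.0735). With the antibody Atp5me had 9.08, 14.8, 11.8 and 18.9 CPM in controls 1, 7, 8 and 15 and 25, 23.9, 18.6 and 26.1 CPM in treated animals 2, 10, 11 and 24 (fold 1.73, log2 0.79, SE 0.25). Only control animal 15 and treated animal 11 overlap. The small subunit Atp5mj gave 0.72 (SE 0.19) after deletion and 0.67 (SE 0.28) with the antibody, and the inhibitor Atp5if1 gave 0.56 (SE 0.15) and 0.39 (SE 0.19). Other small subunits of the membrane part, Atp5mk and Atp5mg, gave -0.09 (SE 0.17) and -0.41 (SE 0.31) after deletion, and 0.30 (SE 0.15) and -0.17 (SE 0.20) with the antibody. Leaving out Het animal 1 or anti-gp120 animal 15, the highest control for each of these genes, moved Atp5f1b to 0.45 and 0.42, Atp5po to 0.59 and 0.67 and Atp5me to 0.98 and 0.94, past the threshold by that choice. Without Het animal 21, the lowest control, Atp5po gave 0.46 and Atp5me 0.69, also past it.

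No gene of the c ring passed in edgeR with every animal, and differences among the 3 were not tested. Atp5mc1 and Atp5mc3 gave 0.39 and 0.37 after deletion with no overlap (SE 0.13 for both), and 0.38 and 0.43 with the antibody. Atp5mc2 had 4.51, 4.26, 5.84 and 3.85 CPM in Het animals 1, 20, 21 and 23 and 4.25, 4.0 and 3.43 CPM in KO animals 24, 3 and 6, with overlap (log2 -0.20, SE 0.20, and -0.29, SE 0.21, with the antibody). Of 93 members tested in both experiments 86 lay above 0 in both and 4 below 0 in both: Atp5mc2, Atp5mg, Cox7a2l and Ndufaf7, named after their values were seen. The share of all genes above 0 in both was not counted. Taken singly, it was 51.4% after deletion and 54.7% with the antibody. No animal was shared between the experiments, controls included.

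Other measures in the same isolates are given beside the members. The share of counts on the mitochondrial genome was 3.91% to 7.99% in Het and 8.83% to 11.9% in KO isolates, and 4.36% to 11.9% with anti-gp120 and 8.36% to 12.1% with anti-IL34. In forebrain it stayed between 3.82% and 4.97% in all arms. All 7 astrocyte markers had a log2 fold change above 0 in both experiments, though none passed, and their sum was 3199 to 11768 CPM in Het, 12923 to 16315 in KO, 4333 to 16963 with anti-gp120 and 9623 to 17827 with anti-IL34. The 7 oligodendrocyte lineage markers summed to 3085 to 10444 CPM in Het, 8395 to 18775 in KO, 3632 to 8970 with anti-gp120 and 5692 to 12152 with anti-IL34. The 8 neuronal markers, of which at most 1 was at 0, summed to 112 to 436 CPM in Het, 383 to 647 in KO, 180 to 548 with anti-gp120 and 412 to 694 with anti-IL34. The 5 choroid plexus markers summed to 1711 to 3936 CPM in Het, 1192 to 3124 in KO, 3.57 to 6.19 with anti-gp120 and 3.14 to 1970 with anti-IL34. The 3 tested erythroid markers were above 0 in both experiments (median log2 fold change 0.86 and 0.18) and none passed, with sums of the list of 10.6 to 24.4 CPM in Het, 12.6 to 50.2 in KO, 5.89 to 22.4 with anti-gp120 and 13.6 to 21.6 with anti-IL34. Neutrophil and monocyte markers were above 0 in 5 of 6 after deletion and 6 of 7 with the antibody (median 0.31 and 0.79) and none passed, with sums of 37.7 to 50.2 CPM in Het, 31.5 to 88.7 in KO, 37.1 to 241 with anti-gp120 and 121 to 383 with anti-IL34. The 7 endothelial and mural markers had medians of 0.11 and 0.17, and none passed. Microglia markers went the other way: all 9 fell after deletion and 5 of 9 with the antibody (edgeR, adjusted p under 0.05), from 11282 to 19619 CPM in Het down to 4430 to 4795 in KO, and from 12878 to 17247 CPM with anti-gp120 down to 5584 to 8843 with anti-IL34. The part of these in the member values was not tested.

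**Figure D5:**
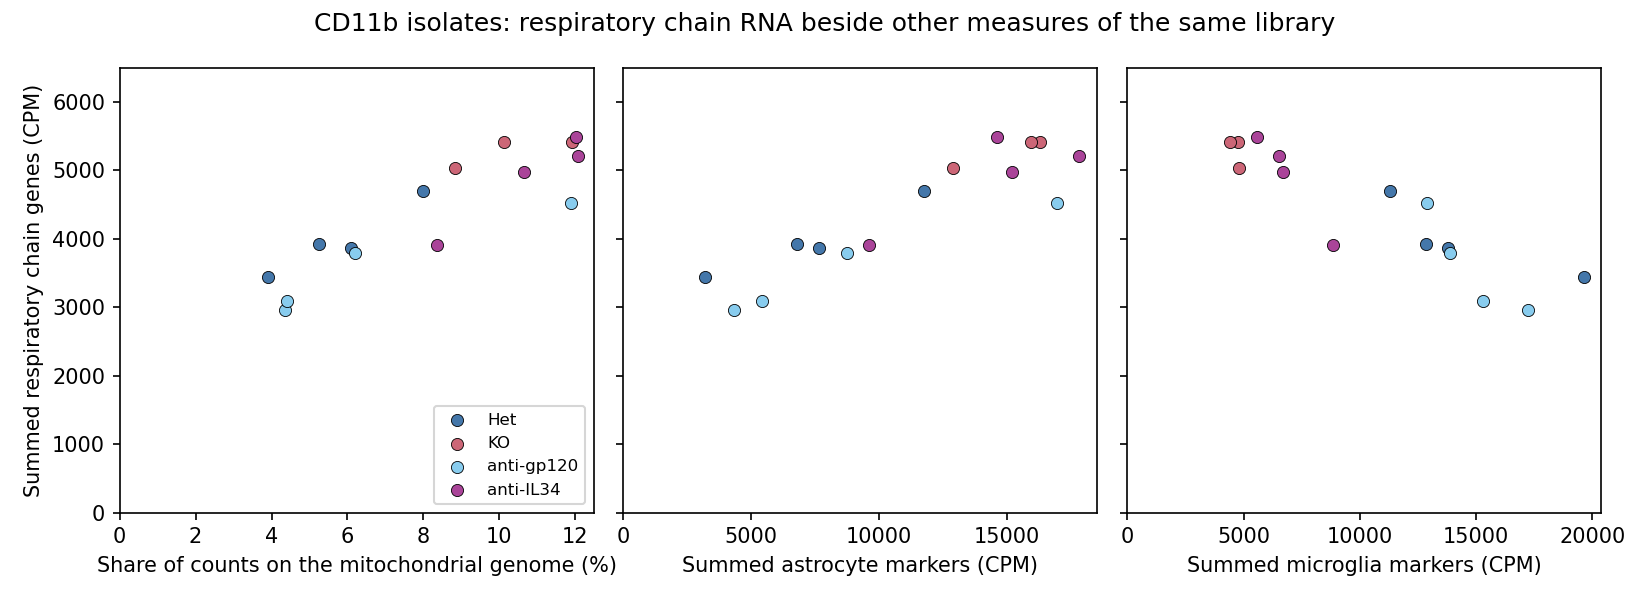
Summed member level of each isolate in CPM against the share of its counts on the mitochondrial genome (percent) and against its summed astrocyte and microglia markers (CPM); each point is 1 of 15 isolates, coloured by arm. Isolates with a high member sum tend to have a high mitochondrial share, high astrocyte markers and low microglia markers. Het animal 1 and anti-gp120 animal 15 are examples inside an arm, and the relation was not tested.

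Inside the control arms, the animals with the lowest and highest member sums also stood at the ends of the marker sums. Between the ends the order was not always kept. Het animal 20 had a higher member sum than Het animal 23 but a lower mitochondrial share (5.25% against 6.08%). The relation was not tested. Het animal 21 had the lowest member sum (3442 CPM), the lowest astrocyte sum (3199 CPM) and the highest microglia sum (19619 CPM) of its arm, and Het animal 1 the reverse (4697, 11768 and 11282 CPM). Anti-gp120 animals 1 and 15 stood in the same order, at 2958 and 4522 CPM for the members, 4333 and 16963 CPM for astrocyte markers, and 17247 and 12878 CPM for microglia markers. Among the treated animals, anti-IL34 animal 11 had the lowest member sum (3906 CPM), the lowest astrocyte sum (9623 CPM) and the highest microglia sum (8843 CPM).

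Other pathway genes in the isolates were read with the same test. No gene of the assembly, carrier, citric acid cycle or mitochondrial genome lists passed in either experiment. At an unadjusted p under 0.05 after deletion, where 14.4% of all genes were higher and 18.2% lower, 10 of 16 citric acid cycle genes were higher (median log2 fold change 0.34), 3 of 12 mitochondrial genome genes (0.84), 6 of 37 assembly genes outside the rule (0.21, with 1 lower) and 0 of 15 carrier genes (0.01). With the antibody, where 10.6% of all genes were higher and 15.3% lower, the higher counts were 0, 0, 2 and 2, with 1 assembly gene lower, and the medians 0.23, 0.76, 0.19 and 0.09. The 12 regulators, among them Nrf1, Gabpa and Yy1, had medians of -0.18 and -0.13, with 1 and 0 higher and 3 and 3 lower at that p. The 79 ribosomal protein genes had medians of -0.14 and -0.10, with 3 and 1 higher and 8 and 17 lower. Glycolysis genes gave 0.17 and 0.31, with 2 and 3 of 17 higher and 1 lower in each, and that 1 passed with the antibody.

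Whether the effect of IL-34 loss differed between isolates and forebrain was tested as an interaction, which uses the same libraries as the comparisons above. In the genotype experiment 3 of 94 members passed (3.19%), all with higher values in the isolates, where 2.98% of all genes were called and 0.552% in that direction: Cox6a2 (log2 difference 1.6, SE 0.36), Atp5pf (0.51, SE 0.12) and Atp5po (0.56, SE 0.13), with adjusted edgeR p of 0.0425, 0.0447 and 0.0464. Under a replicate block for the animal 0 passed, DESeq2 called 43 (and 3557 of 32542 genes), and leaving out Het animal 1 or Het animal 21 gave 57 or 38 members (and 5688 of 19970 or 3243 of 19924 genes). Leaving out any of the other 5 animals gave 0. At an unadjusted p under 0.05, 58 were higher (61.7%), against 18.1% of all genes, and the median was 0.39 against 0.12. Atp5pf, a subunit of the stalk, had 60.7 to 65.9 CPM in KO isolates against 40.7 to 53.6 in Het, and in forebrain its log2 fold change was -0.01 (SE 0.04).

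In the antibody experiment the interaction called 0 of 94 members with edgeR (49 at an unadjusted p under 0.05, of which 48 were higher, against 11.2% of all genes), where edgeR called 0.0924% of all genes. DESeq2 called 7 members and 1094 of 32584 genes. The median was 0.44 against 0.08. The members with the smallest p were Atp5me (0.95, SE 0.26), Ndufa2 (0.81, SE 0.22) and Atp5f1e (0.75, SE 0.21). Without anti-gp120 animal 15 the number was 60, with 5565 of 18610 genes called in all, and leaving out any of the other 7 animals gave 0.

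The last question is whether deletion and antibody differed in their effect. In forebrain edgeR called 0 of 94 members (1 at an unadjusted p under 0.05, against 3.07% of all genes, and 0 with DESeq2), where 0.0101% of all genes were called, and in the isolates 0 of 93 (0 at an unadjusted p under 0.05, against 3.95% of all genes, and 0 with DESeq2), where 0% were called. The median difference, deletion minus antibody, was 0.05 in forebrain and 0.03 in the isolates. Intervals in the isolates were wide, with a median half-width of 0.53 on the log2 scale, and 21 of 93 lay inside -0.5 to 0.5, so differences of that size were not detectable for most members.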

How the data were processed

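Read counts per gene, as whole numbers, were deposited by the authors. Per the submitters' processing notes reads were aligned with STAR 2.7.5c to GRCm38 and counted with featureCounts 1.6.3, and R 4.4.0 is named. The deposited gene length equalled the GENCODE M21 gene span for 99 of 99 members, so counts were made over spans. Of the count columns 6 matched no labelled sample and were not used, and neither was the table of normalised values. Groups came from the labels, which the animal numbers of the deposited sample sheet matched for 30 of 30 libraries.

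Counts were tested with edgeR 4.0.16 (R 4.3.3) by the quasi-likelihood F test, with TMM scaling and with sex in the model. Genes entered by the tool's own filter for expression, applied by group, and p-values were adjusted over all of them (Benjamini-Hochberg, 0.05). The comparison of tissues used the 16 libraries of control animals with the experiment as a further covariate and the filter set on tissue. Interactions used sex by tissue terms over 1 experiment, and deletion minus antibody used the 15 libraries of a tissue. Standard errors are the log2 fold change over the square root of F, and intervals are 95% intervals. Levels are TMM-scaled CPM. DESeq2 1.42.0, other scalings, filters and covariates, an animal block and leaving out each animal were the alternatives. The fit was tested on simulated data with known changes.

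The 2 libraries of an animal pair: their deviations from the group means correlated with a median r of 0.207 over 15 animals (0.0865 to 0.328, above 0.1 in 13). Replicates are separate animals. The members, lists and tests were chosen with earlier results of these data known. Named genes were a fixed set over the complexes plus, in each comparison, the 3 members with the smallest p in each direction past the threshold, or the 3 smallest where none passed. Depth was 15064391 counts or more in each library, and members near 1 CPM rest on few counts. The YY1 letters searched were shortened by 1 base after the counts of the longer form had been seen. The values of 1 named complex I member are not reported here.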

Additional observations from a re-analysis of the deposited data

Results flagged for a closer look

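In 203 groups of 4 animals the highest or lowest animal was set against the others by Dixon's criterion. The groups were the fixed members, the members with the smallest p in the comparison and the summed member level, by arm and tissue. The KO arm, with 3 animals, was left out. Chance gives about 1 in 20, and 4 groups (1.97%) passed. Atp5f1b stood at 665.66 CPM in the forebrain of Het animal 1, above 610 to 617 CPM in the other 3 animals. Ndufaf1 stood at 15.2 CPM in the forebrain of anti-gp120 animal 1, below 17.8 to 18.2 CPM in the others. Cox6a1 stood at 136 CPM in the isolate of anti-IL34 animal 11, below 224 to 240 CPM. Sdhd stood at 37.1 CPM in the isolate of anti-gp120 animal 15, above 29.9 to 31.0 CPM.

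The log2 fold change after deletion was higher in isolates than in forebrain, by the interaction test, for 3 members. These were Cox6a2 (difference 1.6), Atp5po (0.561) and Atp5pf (0.509), with adjusted edgeR p of 0.0425, 0.0464 and 0.0447. For Cox6a2 the directions were opposite, at 1.10 in isolates and -0.45 in forebrain. That gene lies 100% under Itgad and has few counts. None of these 3 passed with the animal as a block.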

How the results depend on the processing

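Leaving out each animal in turn moved the number of members called between 0 and 58 for deletion in the isolates, 0 and 67 for the antibody in the isolates, 0 and 57 for the genotype interaction, 0 and 60 for the antibody interaction, and 64 and 70 for the comparison of tissues. It stayed at 0 in forebrain and for deletion minus antibody in both tissues. In what follows the genes called among all genes of the same fit stand in brackets. For DESeq2 these totals include any gene left without an adjusted p, so the share of all genes may be understated. For deletion in the isolates the number was 12 without a filter on low counts (1993 of 29396), 36 with DESeq2 (3710 of 29396), 14 without sex terms (2189 of 18185) and 3 with all 15 libraries of the tissue (2734 of 18732). For the antibody in the isolates it was 5 with DESeq2 (1868 of 29795), 2 without sex terms (983 of 17570) and 3 with all 15 libraries (988 of 18732). For the genotype interaction it was 1 with RLE size factors (703 of 20107), 1 with total counts only (831 of 20107), 12 without the filter (1569 of 32542), 43 with DESeq2 (3557 of 32542), 23 without sex terms (2400 of 20107) and 0 under the replicate block for the animal (0 of 20107). For the antibody interaction it was 18 without the filter (1352 of 32584), 7 with DESeq2 (1094 of 32584) and 0 with the replicate block (0 of 18399). The replicate block gave 70 in the comparison of tissues, against 67 without it. No paired analysis was possible for the comparisons inside 1 tissue because each animal gave 1 library there. The cause of these moves was not tested.

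The median log2 fold change of the members in the isolates stayed between 0.31 and 0.48 for deletion and between 0.26 and 0.60 for the antibody over the animals left out. In the comparison of tissues, scaling by total counts alone moved the median of all genes from -0.04 to -0.14, and 63 members were called lower and 8 higher. Among the values of single named members under the alternatives, 389 kept their side of the threshold, 34 passed it newly, 24 lost it, and 0 changed sign while called. Reads of overlapping genes cannot be assigned, and isoforms near 1 CPM have few counts.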
